A study of Mus musculus with 6 samples.

Results

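The 50 genes described here encode the proteins that copy DNA and that open S phase, from origin licensing to chromatin assembly. They were taken by gene symbol from a table of 47593 mouse gene rows, and all 50 were found and passed the minimum mean of 10 for testing. The RNA came from femur bone marrow cells of mice, selected for c-Kit, a surface receptor of blood stem and progenitor cells. All cells carried a retrovirus (MSCVneo) with MLL-AF9, a leukaemia fusion of the histone methyltransferase MLL with AF9. The cells were selected with the drug G418 and passaged serially in methylcellulose, a semi-solid medium, with cytokines. There were 3 libraries with the E531R substitution in the AF9 part of the fusion and 3 with the unchanged fusion (WT), and both groups therefore carry the fusion itself. The series sets them against each other to see which transcripts differ when AF9 no longer binds BCOR, a corepressor found in a Polycomb complex. The labels used here give no strain, sex or age of the mice, nor the origin of the replicates (separate cultures or not). The p-values accordingly reflect sample-to-sample spread that could be technical only.

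In G1 the origin recognition complex, Cdc6 and Cdt1 load the ring-shaped MCM helicase onto origins, and Geminin blocks Cdt1 once S phase has begun. Cyclin E with its kinase and E2F transcription factors drive S phase entry. Cdc45 and the GINS complex then switch the helicase on, polymerases alpha, delta and epsilon synthesise DNA around the PCNA clamp, and ribonucleotide reductase and thymidine kinase supply the building blocks. Many of these genes peak in transcription as cells enter S phase, and myeloid cells leave the cell cycle as they mature.

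Library depth ran between 23755210 and 33459668 reads assigned to genes in E531R and between 14161139 and 30597351 in WT. Each of the 50 genes had between 264 and 17926 reads in a library. Values are the authors' normalised read counts, which are gene reads divided by 1 size factor per library. WT replicate 3 deviated from WT replicates 1 and 2. It was the highest of the 6 libraries for 33 of the 50 genes and the lowest for 9. The comparisons of the 50 genes are therefore given with all 6 libraries and again without this library, which leaves 3 E531R and 2 WT libraries. Unless another setting is named, calls are those of limma on the deposited values, with equal weight for each library. Progenitor genes checked the cell type: the myeloperoxidase gene Mpo, the elastase gene Elane and Kit itself were abundant in every library, and the haemoglobin genes were at or near 0.

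Transcripts of the replication machinery differed little between E531R and WT cells. Of the 50 genes, 2 were higher and 0 lower in E531R at a limma adjusted p under 0.05, against 19.9% of the 12991 genes tested (10.4% higher and 9.53% lower). The 2 were E2f2, a transcription factor of S phase genes, and Orc1, the ATPase subunit of the origin recognition complex. With no adjustment, 9 of the 50 had a p under 0.05, where 32.7% of all tested genes did. On the recovered reads edgeR called the same 2 genes and none lower, and DESeq2 called E2f2 higher and Pold2 lower. The 3 E531R values lay entirely above the 3 WT values for 6 of the 50 genes (21.2% of all tested genes) and entirely below for 8 (22.8%), 14 in all (44.0%). The median log2 fold change (E531R over WT) of the 50 genes was 0.02, and that of all tested genes 0.01. It was below 0 for 23 of the 50 and for 48.6% of all tested genes.

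With all 6 libraries the differences were narrow as well as few. The 95% interval of the log2 fold change lay within a 1.5-fold change either way for 44 of the 50 genes, and for 52.0% of all tested genes. The 50 genes averaged between 459 and 12253 normalised reads, while the tested genes include all that averaged 10 or more. The median SE was 0.0997 over the 50 genes and 0.127 over all tested genes. The part of abundance in these shares and sizes was not tested. The 6 genes of the 50 whose interval reached beyond 1.5-fold were E2f2, Rfc1, Pola1, Pold2, Ung and Ccne2. The median size of the log2 fold change was 0.09 over the 50 genes and 0.22 over all genes tested, and 1 of the 50, E2f2, lay beyond 1.5-fold.

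Without WT replicate 3, 17 of the 50 genes were higher and 8 lower in E531R (limma adjusted p under 0.05), against a background of 24.3% higher and 23.1% lower, 47.4% in all. With no adjustment, 26 of the 50 had a p under 0.05, against 53.2%. The groups then did not overlap for 32 of the 50 (64.3% of all tested genes), with 23 higher (32.1%) and 9 lower (32.2%). With both directions pooled, the share of called genes was near the background. By direction, the share higher was above the background and the share lower below it. The changes stayed small, with a median size of 0.10 on the log2 scale over the 50 genes and 0.18 over all tested genes. The median log2 fold change of the 50 genes was 0.05, against -0.01 over all tested genes, and it was below 0 for 19 of the 50, against 51.3%. For 49 of the 50 genes the interval lay within 1.5-fold, and E2f2 was the exception. The share over all tested genes was 66.5%. The median SE was 0.044 over the 50 genes and 0.065 over all tested genes.

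**Figure D1:**
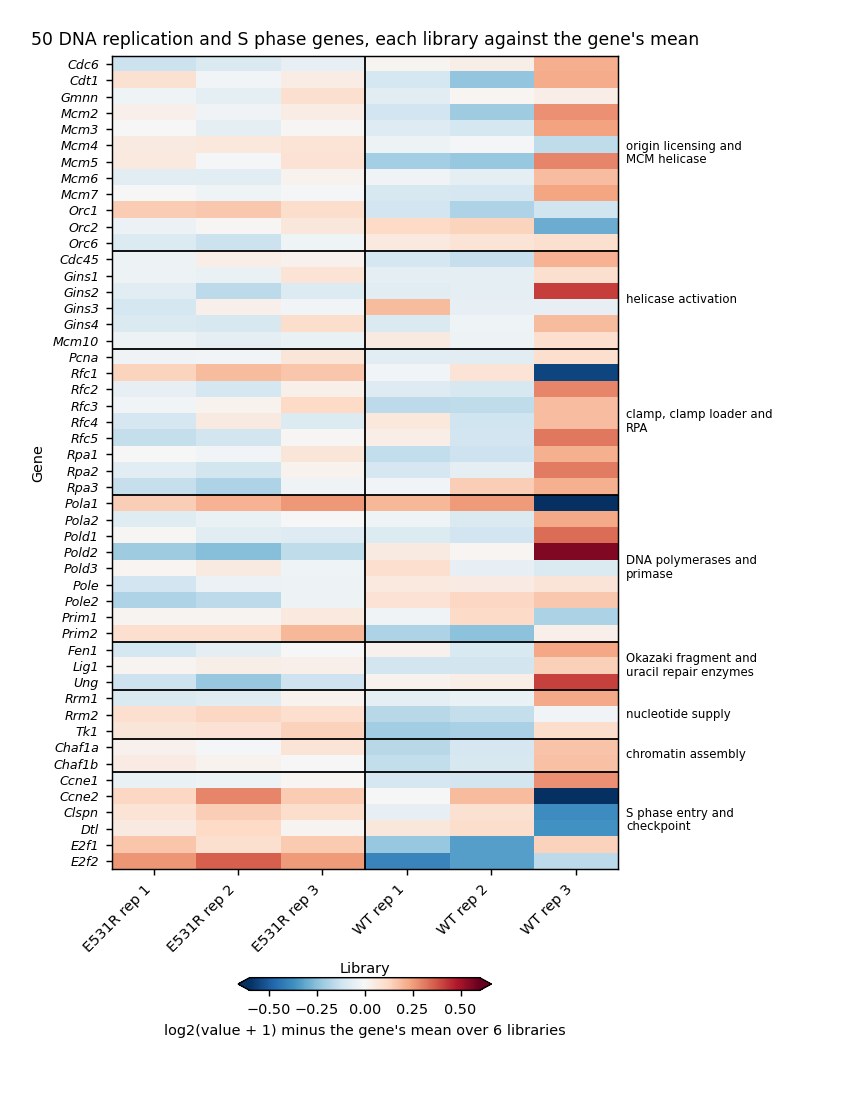
Each row is 1 of the 50 genes and each column 1 library, E531R left of WT, coloured by log2(value + 1) minus the gene's mean over the 6 libraries. Most rows are pale across E531R replicates 1 to 3 and WT replicates 1 and 2, while WT replicate 3 is the highest library for 33 genes and the lowest for 9.

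**Figure D2:**
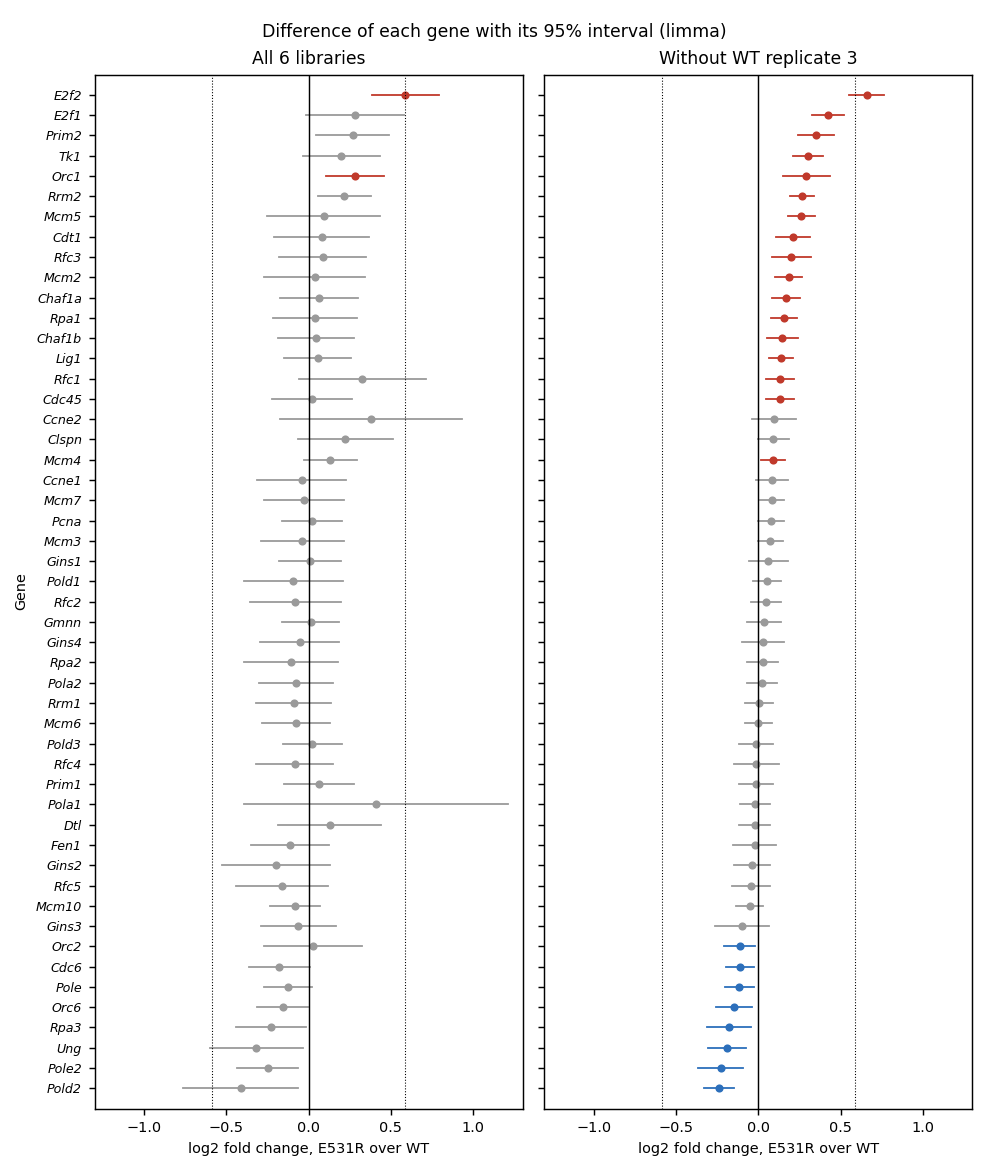
Log2 fold change of E531R over WT (x axis) of each of the 50 genes (rows) with its 95% interval from limma, over all 6 libraries (left) and without WT replicate 3 (right). Red and blue are genes higher and lower at an adjusted p under 0.05, grey genes did not pass, and dotted lines mark a 1.5-fold change. E2f2 lies at 0.59 (left) and 0.66 (right), and intervals are narrower on the right.

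The genes of S phase entry held the largest rise of the 50. E2f2, annotated at chr4:136172394-136196057 (GRCm38), had 1361, 1452 and 1351 normalised reads in E531R replicates 1 to 3, against 860.4, 899 and 1016 in WT. All 3 E531R libraries stood above all 3 WT libraries, with means of 1388 ± 55.5 in E531R and 925 ± 80.8 in WT (SD, n = 3 each). E2f2 rose by 0.59 on the log2 scale (limma adjusted p = 0.00319, SE 0.086), and by 0.66 without WT replicate 3 (limma adjusted p = 1.69e-08, SE 0.051). E2f2 passed under all 17 other settings tried, with adjusted p between 1.69e-08 and 0.0251, and the authors' deposited table gives it an adjusted p of 6.52e-05. E2f2 is the 1 gene of the 50 past 0.05 in the authors' deposited table.

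E2f1, another activator of the E2F family, had 1987, 1893 and 1975 in E531R and 1512, 1405 and 1948 in WT. WT replicate 3 overlapped the E531R range and the other WT libraries did not. With all 6 libraries its log2 fold change was 0.28 (95% interval -0.02 to 0.58; limma adjusted p = 0.173), and without WT replicate 3 it rose by 0.42 (limma adjusted p = 1.16e-06). Clspn, the checkpoint adaptor Claspin, had 2611, 2738 and 2653 in E531R, against 2385, 2628 and 1901 in WT. The groups overlapped with and without WT replicate 3, and Clspn passed in neither comparison (limma adjusted p = 0.257 and 0.114). The cyclin E genes Ccne1 and Ccne2 and Dtl, which directs Cdt1 to destruction, did not pass either, at log2 fold changes of -0.04, 0.38 and 0.13 with all 6 libraries and 0.08, 0.10 and -0.02 without WT replicate 3. For Ccne2 the value moved with 1 library: WT replicate 3 had 629 normalised reads, and the other WT libraries 1058 and 1211.

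E2F proteins bind short GC-rich letters near the starts of S phase genes, so the promoters of the 50 genes were searched for TTTCCCGC, TTTCGCGC, TTTGCCGC and TTTGGCGC on both strands. RefSeq promoter windows on GRCm38.p6, 250 bases before to 50 after the start, were matched for 41 of the 50 genes by symbol. At least 1 of the 4 spellings was found in 17 of the 41 (41.5%), against 704 of 27025 genes with a promoter window (2.605%) and 447 of the 9246 tested genes with one (4.83%). TTTCCCGC was found in 7 of the 41, TTTCGCGC in 7, TTTGGCGC in 8 and TTTGCCGC in 0. The spellings TTTCGCGC and TTTGGCGC can overlap in a run of TTTGGCGCGAAA or its reverse complement. E2f2 and Orc1, the 2 genes that rose with all 6 libraries, each held a match. When WT replicate 3 was left out, 6 of the 17 genes with a match and 9 of the 24 without one were higher, and 2 and 5 were lower. With all 6 libraries the 17 genes with a match had a median log2 fold change of 0.05 and the 24 without one -0.01, and without WT replicate 3 these medians were 0.07 and 0.02. Among all tested genes with a promoter window the medians with all 6 libraries were 0.02 and 0.01. Of the 447 with a match 38 were higher and 32 lower, and of the 8799 without one 995 and 862. Without WT replicate 3, 102 of the 447 were higher and 96 lower, against 2315 and 2137 of the 8799.

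The windows below show the match in the 10 genes that held one among the 25 chosen by rule for values by library, as 30 bases of the gene's strand, 5′ to 3′, with the matched letters in capitals. Matches stand on either strand, so TTTGGCGC also reads GCGCCAAA, TTTCGCGC reads GCGCGAAA and TTTCCCGC reads GCGGGAAA.
E2f2, chr4:136172294-136172323 (+): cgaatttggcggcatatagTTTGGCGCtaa
Orc1, chr4:108579416-108579445 (+): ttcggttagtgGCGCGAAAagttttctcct
Mcm5, chr8:75109345-75109374 (+): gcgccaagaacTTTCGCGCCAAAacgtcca
Mcm6, chr1:128359797-128359826 (-): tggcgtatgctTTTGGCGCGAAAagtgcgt
Mcm6, chr1:128359734-128359763 (-): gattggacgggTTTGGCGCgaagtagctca
Cdc6, chr11:98908002-98908031 (+): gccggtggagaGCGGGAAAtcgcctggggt
Cdt1, chr8:122568035-122568064 (+): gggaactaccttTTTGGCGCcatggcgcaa
Pold1, chr7:44548766-44548795 (-): cacggcggcgtatcttgtgGCGGGAAAagc
Pole2, chr12:69228162-69228191 (-): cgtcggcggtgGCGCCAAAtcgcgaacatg
Lig1, chr7:13278841-13278870 (+): cgccaaagtgcGCGCGAAAtctgtgtggcg
Clspn, chr4:126556990-126557019 (+): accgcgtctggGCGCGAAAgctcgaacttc

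The match of Orc1 begins 27 bases before the RefSeq start and that of E2f2 at base 40 after it, counting the start as base 1. The gene coordinates printed for Orc1 and E2f2 come from another annotation (GENCODE), whose starts differ from the RefSeq starts. By those coordinates the match of Orc1 lies inside the gene and that of E2f2 before it. In Mcm5 and Mcm6 a pair of overlapping matches makes a run of 12 capitals, which reads TTTCGCGCCAAA in Mcm5 and TTTGGCGCGAAA in Mcm6. Pole2 and Cdc6 hold matches as well, and their values in E531R were lower than in WT.

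Among the genes of origin licensing, Orc1 rose with all 6 libraries. Orc1, annotated at chr4:108579423-108614833 (GRCm38), had 508, 511 and 491 normalised reads in E531R, against 421, 401 and 420.4 in WT. The groups did not overlap, and the means were 503 ± 11.0 in E531R and 414 ± 11.7 in WT (SD, n = 3 each). Orc1 rose by 0.28 on the log2 scale (limma adjusted p = 0.0392, SE 0.074). This call rests on a narrow margin: it was lost without WT replicate 1 or 2 and without any 1 E531R replicate (limma adjusted p = 0.0947 to 0.173), with DESeq2 (0.0812), with the replicate number as a block (0.105) and with no filter on low values (0.0742). The authors' deposited table gives Orc1 an adjusted p of 0.153. Without WT replicate 3 it held, at 0.29 (limma adjusted p = 0.00197).

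Other subunits of the origin recognition complex were lower or level. Orc6, the smallest subunit, had 962, 931 and 1001 in E531R, against 1062, 1078 and 1089.6 in WT, so every E531R library was lower. Its log2 fold change was -0.16 with all 6 libraries (limma adjusted p = 0.151) and -0.15 without WT replicate 3 (limma adjusted p = 0.0245). Orc2, with 1719, 1772 and 1849.6 in E531R and 1912, 1936 and 1434 in WT, stood at 0.03 with all libraries and fell by 0.11 on the log2 scale without WT replicate 3 (limma adjusted p = 0.0461).

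Cdc6, the loading ATPase, had 2272, 2346 and 2402 in E531R, against 2516, 2546 and 2893 in WT. The E531R values were all lower (log2 fold change -0.18, limma adjusted p = 0.167; -0.11 and 0.0295 without WT replicate 3). Its partner Cdt1 had 2468, 2286 and 2386 in E531R and 2153, 1963 and 2701 in WT. WT replicate 3 was the highest library and the other WT libraries were the lowest. Cdt1 stood at 0.08 (limma adjusted p = 0.683) and rose by 0.21 without WT replicate 3 (limma adjusted p = 0.00173). Gmnn, which encodes Geminin, stood at 0.01 and 0.04 in the same comparisons and passed in neither.

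The 6 genes of the MCM ring had log2 fold changes between -0.08 (Mcm6) and 0.13 (Mcm4) with all 6 libraries. Mcm5 had 11918, 11386 and 12159 in E531R, against 9935, 9782 and 14011 in WT. Mcm2 had 10435, 10086 and 10568 in E531R and 9437, 8822 and 12386 in WT. Mcm6 had 11655, 11694 and 12401 in E531R and 12058, 11792 and 13917 in WT. For these 3 genes WT replicate 3 was the highest of the 6 libraries. Without it Mcm2, Mcm4 and Mcm5 rose by 0.18, 0.09 and 0.26 (limma adjusted p = 0.00105, 0.0453 and 2.61e-05), while Mcm3, Mcm6 and Mcm7 stood at 0.07, -0.00 and 0.08 and did not pass (limma adjusted p = 0.117, 0.978 and 0.0584). Whether these subunits differ from one another in their response was not tested. Per length of exon, as TPM (values per exon length, scaled to one fixed total in every library and computed here), the 6 genes ran between 214 TPM (Mcm2) and 463 TPM (Mcm3) over the 6 libraries, and Orc1, at 19.2 TPM, was the lowest of the 50 genes.

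**Figure D3:**
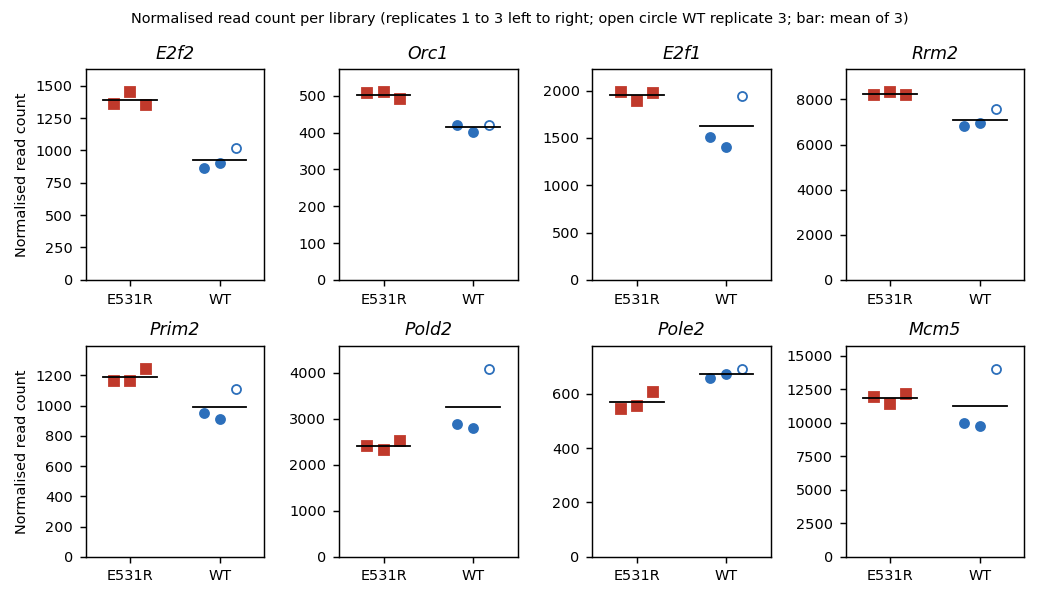
Normalised read count (y axis, starting at 0) of 8 of the genes in each library, E531R left of WT, with replicates 1 to 3 from left to right, an open circle for WT replicate 3 and a bar at the mean of 3. E2f2, Orc1, Rrm2 and Prim2 lie higher in every E531R library and Pold2 and Pole2 lower, while for E2f1 and Mcm5 WT replicate 3 overlaps or exceeds the E531R libraries.

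Of the 6 genes that switch the helicase on, Cdc45 was called without WT replicate 3. Cdc45, a subunit of the active helicase, had 3059, 3206 and 3177 in E531R and 2905, 2842 and 3605 in WT, a log2 fold change of 0.02 (95% interval -0.22 to 0.27; limma adjusted p = 0.899). Without WT replicate 3 it rose by 0.13 (limma adjusted p = 0.0109). Gins2, a subunit of the GINS complex, had 963, 902 and 951 in E531R, against 961, 970.1 and 1342 in WT, with only WT replicate 3 set apart. It passed in neither comparison (limma adjusted p = 0.367 and 0.548). Gins1, Gins3, Gins4 and Mcm10, a helicase activator, lay between -0.08 and 0.01 with all libraries and between -0.10 and 0.06 without WT replicate 3, and 0 of these 4 passed in either.

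Among the polymerase genes, Pold2, Pole and Pole2 fell and Prim2 rose without WT replicate 3. Pold2, the small subunit of polymerase delta, had 2402, 2329 and 2507 in E531R, against 2885, 2809 and 4086 in WT. All E531R values were lower, and the size of the difference moved with WT replicate 3. The log2 fold change was -0.41 with all libraries (95% interval -0.76 to -0.06; limma adjusted p = 0.0999) and -0.24 without that replicate (-0.33 to -0.15; limma adjusted p = 0.000176). DESeq2 called Pold2 with all 6 libraries (adjusted p = 0.0439). Pold1, the catalytic subunit, had 3798, 3609 and 3584 in E531R and 3577, 3489 and 4770.2 in WT. It passed in neither comparison (log2 fold change -0.09 and 0.05, limma adjusted p = 0.644 and 0.3).

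Pole2, the second subunit of polymerase epsilon, had 545, 555 and 606 in E531R, against 658, 675 and 693 in WT. The groups did not overlap, and the log2 fold change was -0.25 (limma adjusted p = 0.0685), or -0.23 without WT replicate 3 (limma adjusted p = 0.00783). Its catalytic partner Pole stood at -0.12 in both comparisons and passed without WT replicate 3 (limma adjusted p = 0.0312). Prim2, the large primase subunit, had 1160.5, 1163 and 1243 in E531R, against 951, 913 and 1107 in WT. Every E531R library was higher, at a log2 fold change of 0.27 (limma adjusted p = 0.0920), and Prim2 rose by 0.35 without WT replicate 3 (limma adjusted p = 3.00e-05). Prim1, the catalytic primase subunit, stood at 0.06 and -0.02 (limma adjusted p = 0.658 and 0.819).

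Pola1, the catalytic subunit of polymerase alpha, had 2190.4, 2282 and 2364 in E531R, against 2268, 2358 and 942 in WT. WT replicate 3 was the lowest library and the other WT libraries lay within the E531R range. The log2 fold change was 0.41 with all libraries (95% interval -0.39 to 1.21) and -0.02 (-0.11 to 0.07) without that library.

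Among the clamp, its loader and RPA, Rfc1, Rfc3 and Rpa1 rose and Rpa3 fell without WT replicate 3. Pcna, the sliding clamp and at 585 TPM the most abundant of the 50 genes, had 9492, 9520.4 and 10142 in E531R, against 9207, 9215 and 10346 in WT. Its log2 fold change was 0.02 (95% interval -0.16 to 0.20; limma adjusted p = 0.870), and 0.08 without WT replicate 3 (limma adjusted p = 0.116). Rfc1, the large subunit of the clamp loader, had 3698, 3852 and 3784 in E531R, against 3331, 3568 and 2299 in WT. All E531R values were higher, and again WT replicate 3 was the outlying library. Rfc1 stood at 0.33 (limma adjusted p = 0.216) and rose by 0.13 without it (limma adjusted p = 0.0135). Rpa3, the smallest subunit of the single-strand binding protein RPA, had 857, 829 and 929.7 in E531R and 931, 1044 and 1092 in WT. Its log2 fold change was -0.23 (limma adjusted p = 0.131), and -0.18 without WT replicate 3 (limma adjusted p = 0.0285). Of the other 6 genes of this group, Rfc3 and Rpa1 rose without WT replicate 3, by 0.20 and 0.15 (limma adjusted p = 0.00777 and 0.00306), and 0 passed with all libraries.

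Okazaki fragment joining and uracil repair showed no common direction. Lig1, the replicative DNA ligase, had 5193, 5263 and 5237 in E531R, against 4754, 4751 and 5659 in WT. It stood at 0.05 with all libraries (limma adjusted p = 0.690) and rose by 0.14 without WT replicate 3 (limma adjusted p = 0.00372). Ung, the uracil DNA glycosylase, had 851, 791 and 851 in E531R and 942, 954 and 1233 in WT. All its E531R values were lower, at -0.32 (limma adjusted p = 0.113) and -0.19 without WT replicate 3 (limma adjusted p = 0.00847). The flap nuclease gene Fen1 stood at -0.11 and -0.02 and passed in neither. With 78.8% of its exonic bases shared with an annotated gene on the opposite strand, its reads and that gene's cannot be told apart.

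In nucleotide supply, Rrm2 and Tk1 rose without WT replicate 3. Rrm2, the regulated subunit of ribonucleotide reductase, had 8194, 8337 and 8215 in E531R, against 6807, 6938 and 7562 in WT. Every E531R library was higher, at a log2 fold change of 0.22 (limma adjusted p = 0.0706), and Rrm2 rose by 0.26 without WT replicate 3 (limma adjusted p = 9.36e-06). Tk1, thymidine kinase, had 1979.8, 1998 and 2071 in E531R, against 1627, 1646 and 2024 in WT, with WT replicate 3 inside the E531R range. It stood at 0.20 (limma adjusted p = 0.218) and rose by 0.30 without that library (limma adjusted p = 1.75e-05). Rrm1, the constant subunit, had 10885, 10995 and 11737 in E531R and 11137, 11227 and 13535 in WT. It passed in neither comparison (-0.09 and 0.00, limma adjusted p = 0.555 and 0.970).

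Both genes of the chromatin assembly factor rose in the comparison without WT replicate 3. Chaf1a had 4014, 3912 and 4174 in E531R, against 3518, 3674 and 4436 in WT, so that WT replicate 3 lay above the E531R range and the other WT libraries below it. Chaf1a and Chaf1b stood at 0.06 and 0.05 with all libraries (limma adjusted p = 0.683 and 0.765) and rose by 0.17 and 0.15 without WT replicate 3 (limma adjusted p = 0.00279 and 0.0116). Chaf1a shares 52.5% of its exonic bases with Ubxn6 on the opposite strand.

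The place of WT replicate 3 among these genes moved with base composition, and its part in the results was not tested. Its log2 ratio to the mean of WT replicates 1 and 2 ran between -1.29 (Pola1) and 0.52 (Pold2), with a median of 0.25 over the 50 genes and 0.07 over the tested genes that have a GC content. Across the 50 genes this ratio and the GC content of the longest transcript had a Pearson r of 0.585 and a Spearman rho of 0.673. Across 12569 tested genes the values were 0.564 and 0.625. These points all share the same 3 libraries, so they are a description of WT replicate 3. The coefficient of variation of the 50 genes had a median of 3.45% in E531R (0.675% to 8.02%) and 12.5% in WT (0.977% to 42.7%), and 1.93% between WT replicates 1 and 2. When a trend with GC content and length was removed from each library, 6 of the 50 genes were higher (Cdt1, E2f1, E2f2, Orc1, Rrm2 and Tk1) and 3 lower (Pold2, Pole and Pole2) with all 6 libraries. Of all tested genes 16.0% were then higher and 15.7% lower, 31.7% in all. These 9 are among the 25 called without WT replicate 3, in the same directions. The others of the 25 were not called with the trend removed and all 6 libraries. Among them Prim2 stood at 0.14 (SE 0.177, limma adjusted p = 0.594) and Rpa3 at -0.49 (SE 0.343, limma adjusted p = 0.322). Before the removal their SEs were 0.092 and 0.090.

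**Figure D4:**
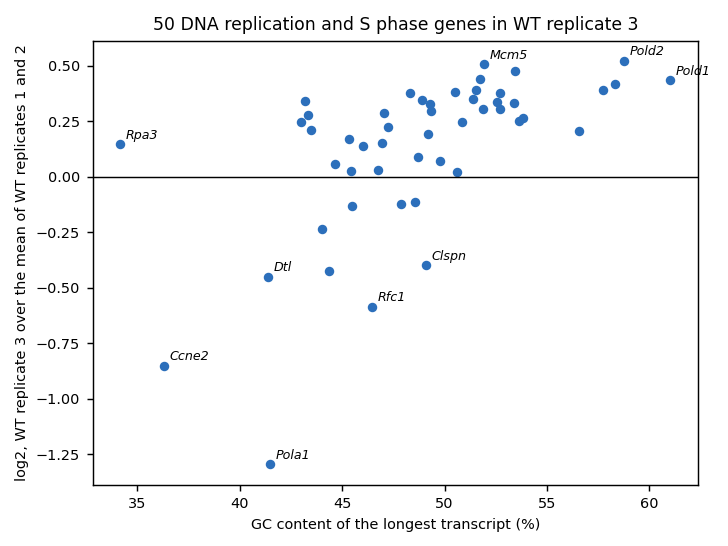
Log2 ratio of WT replicate 3 to the mean of WT replicates 1 and 2 (y axis) against the GC content of each gene's longest transcript (x axis), 1 point per gene for the 50 genes. Pola1 lies lowest at -1.29 and Pold2 highest at 0.52, and the Spearman rho is 0.673.

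Further genes of DNA replication and S phase, 103 in 6 lists, also gave few calls with all 6 libraries. With all 6 libraries 3 of the 103 were higher and 5 lower in E531R (limma adjusted p under 0.05), against a background of 10.4% and 9.53%, and without WT replicate 3 there were 18 and 25, against 24.3% and 23.1%. The medians of their log2 fold changes were 0.08 and -0.01 in these comparisons. The 3 higher calls were each lost without E531R replicate 1, 2 or 3 or WT replicate 1, when 0 of the 103 were higher. The count lower was 1 without E531R replicate 1 or 2, 3 without E531R replicate 3 and 2 without WT replicate 1. Dctd kept its call whichever library was left out (limma adjusted p at most 0.0306). Dtymk lost its call without E531R replicate 1 or 2 (0.0795 and 0.0841). Orc5, Samhd1 and Cdc25a lost theirs without any 1 library other than WT replicate 3 (0.0505 to 0.141).

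Genes of nucleotide synthesis held 5 of the 8 calls, with 2 higher and 3 lower of 16. Dctd, which deaminates dCMP, averaged 569 ± 2.79 in E531R and 783 ± 23.6 in WT, with n = 3 in each group and SD as error (limma log2 fold change -0.46, adjusted p = 0.00357). Dtymk, the thymidylate kinase that acts after Tk1, averaged 3061 ± 146 in E531R and 4153 ± 429.5 in WT (-0.44, limma adjusted p = 0.0156). Samhd1, which breaks down dNTPs, averaged 1954 ± 15.9 in E531R and 1627 ± 29.0 in WT (0.26, limma adjusted p = 0.0218). The log2 fold changes of Dctd, Dtymk and Samhd1 were -0.48, -0.35 and 0.28 without WT replicate 3. Without WT replicate 3 the list had 2 higher and 10 lower of 16. The lower ones included the purine and pyrimidine synthesis genes Gart, Paics, Cad and Umps. Gart was also among the 3 lower with all 6 libraries (log2 fold change -0.40, limma adjusted p = 0.0455). Paics, Cad and Umps did not pass there (limma adjusted p = 0.102, 0.0531 and 0.112).

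The E2F, RB and CDK2 list had 1 higher and 0 lower of 20, and 6 and 1 without WT replicate 3. Its call was Cdc25a, the phosphatase that activates CDK2, which averaged 4366 ± 60.9 in E531R and 3522 ± 289 in WT (log2 fold change 0.31, limma adjusted p = 0.0307), and stood at 0.38 without WT replicate 3. The list of other origin and helicase factors had 0 higher and 1 lower of 18, and 2 and 4 without WT replicate 3. The call with all 6 libraries was Orc5, another subunit of the origin recognition complex, with 619 ± 23.9 in E531R and 779.9 ± 17.7 in WT (-0.33, limma adjusted p = 0.0171), and its log2 fold change was -0.32 without WT replicate 3. The S phase checkpoint and fork repair list had 0 higher and 1 lower of 20, and 1 and 5 without WT replicate 3.

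Neither the list of other fork, clamp and Okazaki factors (16 genes) nor that of chromatin replication factors (13 genes) had a call in either direction with all 6 libraries. Without WT replicate 3 the first had 2 higher and 4 lower, with Chtf8 and Rnaseh2a, a subunit of the nuclease that removes RNA primers, both at -0.25 (limma adjusted p = 5.92e-05 and 0.000319). The chromatin list then had 5 higher and 1 lower, with Ssrp1, a subunit of the histone chaperone FACT, at 0.24 and Tonsl, which reads newly made histones, at 0.19 (limma adjusted p = 3.77e-05 and 0.000713).

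Small differences in the replication genes stood beside large rises in genes of maturing myeloid cells. The 10 neutrophil markers summed to between 67804.5 and 75327 normalised reads in E531R libraries, against 6463 to 8746 in WT libraries, and 9 of 9 tested were higher. Among them Retnlg was at or near 0 in every library. The 10 monocyte and macrophage markers summed to between 15413 and 17359 in E531R and between 6023 and 7983 in WT, with 8 higher and 1 lower of 9 tested. The lower one was Ccr2, with 798, 829 and 738 in E531R replicates 1 to 3, against 5103, 5434 and 2807 in WT. Ly86 was near 0. The counts of higher and lower markers in both lists were the same without WT replicate 3. Rises were not confined to maturation markers. The 11 myeloid progenitor markers summed to between 327274 and 339616 in E531R and between 242651 and 288551 in WT. Of these, 3 were higher and 0 lower with all 6 libraries, at log2 fold changes between -0.42 and 1.01 (median 0.11). Without WT replicate 3, 4 were higher and 4 lower. The 50 replication genes together took between 0.728% and 0.740% of all reads in E531R libraries. In WT replicates 1 to 3 the shares were 0.713%, 0.710% and 0.778%. Every E531R library thus lay above WT replicates 1 and 2 and below WT replicate 3. In bulk RNA, a change in the share of cycling cells and a change in RNA per cell cannot be told apart, and the part of the maturation markers in any value given here was not tested.

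**Figure D5:**
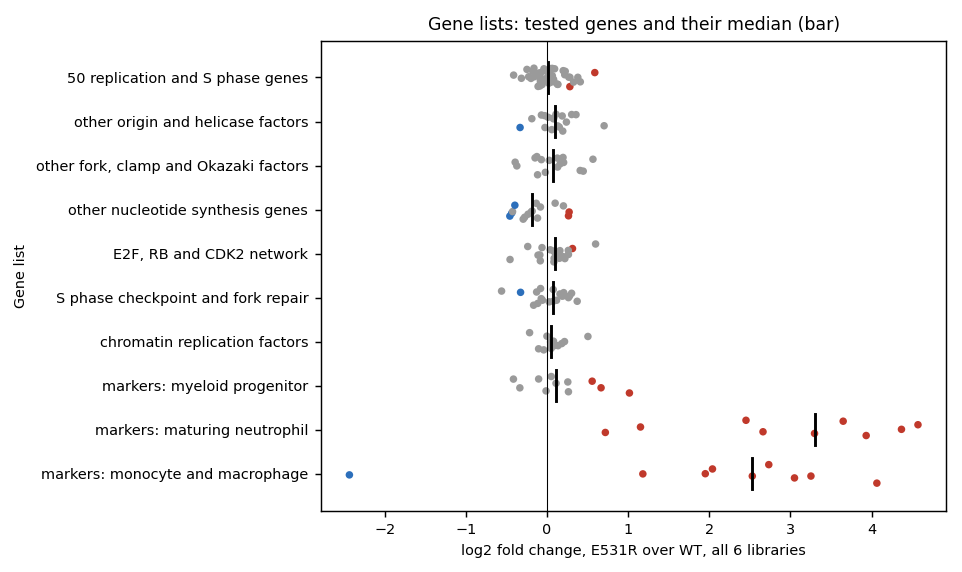
Log2 fold change of E531R over WT with all 6 libraries (x axis) of the tested genes of each list (rows), with red and blue points past the threshold, grey points not past it and black bars at list medians. The median is 0.02 for the 50 replication and S phase genes, 3.30 for the neutrophil markers and 2.53 for the monocyte and macrophage markers.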

How the data were processed

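The submitters' processing notes name HISAT2, featureCounts, DESeq2, SAMtools, FastQC and cutadapt, and the build GRCm38. The sources used here give no versions, gene annotation or strand setting. The deposited values are of unit signal: gene read counts that the authors divided by 1 size factor per library, which hides any change common to all genes. All values (100%) were whole multiples of 1 read within 0.001 reads, so whole reads were recovered. Further columns that the authors deposited give their log2 fold change and adjusted p-value, per the file headers, and a test statistic, a score not used here. The authors' fold is WT over E531R.

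The main test was limma 3.58.1 (R 4.3.3), two-sided, with eBayes trend, run on log2(value + 1). The pseudocount of 1 understates changes of low genes. The 12991 genes averaging 10 or more were tested with no covariate and Benjamini-Hochberg adjustment over all tested genes. On recovered reads edgeR 4.0.16 called 1393 genes higher and 1251 lower. DESeq2 1.42.0 was also run on them. Alternatives are listed under the results' dependence on processing. Scripts were tested on simulated data.

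The 50 genes, the further lists and the repeat without WT replicate 3 were chosen with earlier results of these data known, and no list was tested as a set. Genes given by library are, by rule, the 10 with the smallest adjusted p with all libraries, the 10 with the smallest without WT replicate 3, and in each role the one with the highest mean and the one with the largest change, 25 in all. Further genes are up to 3 per list past the threshold, or 2 without WT replicate 3. A gene that this rule also names is not reported here. Orc2, Pola1, Ccne2, Mpo, Elane, Kit, Retnlg, Ly86, Ccr2, Gart, Paics, Cad, Umps and the other genes of the 50 were named after their values were seen. GC content, exon lengths and overlaps come from GENCODE M21 (GRCm38), matched by symbol for 45250 rows. Of the 50 genes, 17 share exonic bases with another gene, 15 of them mainly on the opposite strand, and Gins2, Fen1 and Chaf1a share most of theirs. How reads shared with such partners, or with near-identical copies, were assigned is not known here.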

Additional observations from a re-analysis of the deposited data

How the results depend on the processing

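Of the 50 genes, 2 were higher and 0 lower with all 6 libraries. The count higher was 1 with no filter on low values, with DESeq2 (which also had 1 lower) and with the replicate block, 6 with the GC and length trend removed (3 lower), 4 with that trend removed and the replicate block (3 lower), and 18 with limma array weights (9 lower), whose fit stopped before its tolerance was met and gave WT replicate 3 a weight of 0.0579. Without 1 library, the counts ran from 1 to 17 higher and from 0 to 8 lower, and every value above 1 or 0 came from leaving out WT replicate 3. Pseudocounts of 0.5 and 10, a mean of at least 50, TMM rescaling and edgeR gave 2 higher and 0 lower. Without WT replicate 3, edgeR called 16 higher and 8 lower, and removal of the GC and length trend gave 19 and 6. Leaving out a further library, an alternative added after the data were seen, gave 11 to 17 higher and 1 to 8 lower, down from 17 and 8. The low counts were 11 and 2 without WT replicate 1 and 13 and 1 without WT replicate 2, when the lone WT library is assumed to vary like the E531R libraries. The count lower was 3 without E531R replicate 1 and 5 without E531R replicate 2. E2f2 was called under all settings.

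The median log2 fold change of the 50 genes lay between -0.03 and 0.05 under the settings with all 6 libraries or with 1 left out. These values are within its spread between libraries, an SD of 0.0999. WT replicate 3 is part of that spread, so the spread cannot judge the shift seen without this library. The median lay between 0.02 and 0.06 when a further library was left out beside WT replicate 3. Over all genes, with 1349 higher and 1238 lower, counts were 3432 and 3266 with array weights and 2078 and 2043 with the trend removed, and 1966 were lower with the trend removed and the replicate block. Without 1 library they ran from 819 to 3159 higher and from 746 to 2999 lower. Of the 103 further genes, 3 higher and 5 lower, the replicate block gave 0 and 3, array weights 19 and 22, the trend removed 7 and 11, both the trend removed and the replicate block 6 and 14, and DESeq2 9 lower. Leaving out 1 library gave 0 to 18 higher and 1 to 25 lower. For the genes given by library, 370 of 425 values kept their side of the threshold, 8 lost the call (all Orc1), 47 gained one (17 of them without WT replicate 3) and 0 called values changed sign. The cause of these shifts was not tested.

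Replicate numbers are shared by the groups, but same-numbered libraries deviated together with correlations of 0.0017, 0.192 and 0.238, so the numbers are not taken as pairs. Depth limits Orc1 most: at 264 reads in 1 library the counting SD was 6.16%, above its coefficient of variation of 2.18% in E531R and 2.82% in WT. The spread among 3 libraries, and WT replicate 3 within it, limits the comparisons.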
